A study of Mus musculus with 30 samples.

Results

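Cholesterol handling was examined in 10 genes: the receptor gene *Nr1h3*, the exporters *Abca1* and *Abcg1*, the neighbouring *Abca6*, *Abca8a* and *Abca9*, the sterol half-transporters *Abcg5* and *Abcg8*, and *Lipa* and *Scarb1*. They were taken by name from a gene table of 41549 rows, and each was found once. RNA-seq libraries came from 3 tissues of 5 *LFABP*-/- mice and 5 WT mice, namely inguinal white fat (iWAT), interscapular brown fat (iBAT) and liver, which gives 30 libraries in 6 groups of 5. *LFABP*-/- mice lack *Fabp1*, the gene of the liver fatty acid-binding protein, in the whole body. Every mouse was a male of the C57Bl/6J background. All had received the same diet, with 45 kcal% fat and rich in saturated fat, for 12 weeks from 2 months of age, and had fasted for 4 h. No library of a low-fat diet was analysed here, so the genotypes are compared only in mice on the high-fat diet. The question is whether loss of LFABP, a cytosolic carrier of fatty acids, goes with a change in the transcripts that move sterols out of cells.

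LXRs are nuclear receptors for oxidised sterols. They pair with a retinoid X receptor (RXR), bind DNA and raise transcription of genes that remove cholesterol from the cell. *Nr1h3* codes for LXRalpha, the form that is abundant in liver, fat and macrophages, and *Nr1h2* for the widely expressed LXRbeta. ABCA1 passes cholesterol and phospholipid to lipid-poor apolipoprotein A-I, ABCG1 passes cholesterol to HDL, and ABCG5 and ABCG8 form a heterodimer that secretes sterols into bile. SCARB1 (SR-BI) takes cholesteryl ester from HDL. LIPA, the lysosomal acid lipase, splits cholesteryl esters inside lysosomes and so supplies free cholesterol. *Abca1*, *Abcg1*, *Abcg5* and *Abcg8* are known LXR targets, while the substrates of ABCA6, ABCA8A and ABCA9 are less well known.

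The promoter windows of the 2 sterol export systems are shown because the levels below differ most between tissues for one and between genotypes for the other. Sequences are from RefSeq on build GRCm38.p6 and cover 300 bases around the annotated start, most of them before it. Windows were matched for 7 of the 10 genes: *Nr1h3*, *Abca1*, *Abca8a*, *Abca9*, *Abcg5*, *Abcg8* and *Lipa*. The usual LXR response element is a direct repeat with a spacer of 4 bases (DR4), searched here as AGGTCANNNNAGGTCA on both strands. With up to 2 mismatches over its 12 fixed bases, none of the 7 genes held a match, and 3.02% of all 32851 mouse promoter windows did. With 3 mismatches, a limit chosen after these sequences were read, only *Abca1* of the 7 held one, against 21.9% of all windows. The *Abca1* match lies on the strand opposite to the gene, starts 67 bases before the start site (chr4:53159947-53159962) and reads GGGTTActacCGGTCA on its own strand, with 9 of the 12 fixed bases matching. A match is only a description of the letters, and other forms of the element or other windows were not searched. In the *Abca1* window (chr4:53159846-53160145, minus strand) the capitals mark the 12 fixed positions of that match, as read on the gene's strand. In the *Abcg5* window (chr17:84682962-84683261, minus strand) they mark the 109 bases that lie between the start sites of *Abcg5* and *Abcg8*.
Abca1: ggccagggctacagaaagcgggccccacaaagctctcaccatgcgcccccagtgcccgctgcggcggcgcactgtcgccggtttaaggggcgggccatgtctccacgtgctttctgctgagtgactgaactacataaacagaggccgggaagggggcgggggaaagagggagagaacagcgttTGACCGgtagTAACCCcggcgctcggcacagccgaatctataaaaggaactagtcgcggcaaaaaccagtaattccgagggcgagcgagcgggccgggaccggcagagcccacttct
Abcg5: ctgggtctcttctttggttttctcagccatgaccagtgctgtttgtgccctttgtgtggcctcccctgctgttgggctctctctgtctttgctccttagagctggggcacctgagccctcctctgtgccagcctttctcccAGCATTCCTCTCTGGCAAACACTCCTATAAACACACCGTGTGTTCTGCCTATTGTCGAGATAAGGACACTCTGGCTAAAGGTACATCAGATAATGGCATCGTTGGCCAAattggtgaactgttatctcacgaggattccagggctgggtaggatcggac
The second window shows how close *Abcg5* and *Abcg8* are. From these starts they are transcribed away from each other, and a second annotated start of *Abcg8* lies inside *Abcg5*. Of the window shown, 209 of the 300 bases are also in the *Abcg8* window.

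Values are on the TPM scale, where each library sums to between 999967.3 and 999996.4, so a value is a share of the library's transcripts adjusted for transcript length. Read depth is unknown, and no counting interval can be given. Between 16470 and 20502 genes were above 0 in a library. *Fabp1* was between 0.2 and 51.8 in *LFABP*-/- liver and between 9165.5 and 12697.6 in WT liver. Hepatocyte markers were not confined to liver. The median of 12 hepatocyte markers reached 1.29, 1.81, 1.54, 0.312 and 0.196% of the same genotype's liver mean in the *LFABP*-/- iBAT libraries 1 to 5, against 0.00304 to 0.0833% in WT iBAT. In iWAT it was 2.18% in *LFABP*-/- library 1, against 0.0223 to 0.136% in the other *LFABP*-/- libraries and 0.0979 to 0.368% in the WT libraries. *Fabp1* itself was 196.1 in the library labelled *LFABP*-/- iWAT 1, against 0.2 to 0.9 in the other *LFABP*-/- and 1.9 to 23.9 in the WT iWAT libraries. That value goes against the label for the deleted gene, in the iWAT library with the highest hepatocyte marker median. *Fabp1* is abundant in WT liver, as given above, so the value alone does not settle the genotype of the mouse. Where it comes from was not tested, and the iWAT calls are also given without that library. In iBAT *Fabp1* was low in both genotypes, 0.4 to 21.2 in *LFABP*-/- and 0.2 to 8.7 in WT mice, and does not check the labels there. In iWAT, lymphocyte markers stood apart in *LFABP*-/- libraries 2, 3 and 4 and in WT libraries 3 and 4. The labelled tissues held their own markers, for example summed brown adipocyte markers of 15633 to 19115 in *LFABP*-/- iBAT and 14630 to 17224 in WT iBAT.

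The 10 genes fell into different tissue patterns. *Abcg5* and *Abcg8* were liver transcripts. *Abcg5* averaged 73.6 ± 14.4 in *LFABP*-/- liver and 67.8 ± 16.7 in WT liver (SD, n = 5 each), while no fat library exceeded 1.0. *Abcg8* averaged 64.4 ± 10.3 in *LFABP*-/- liver and 80.3 ± 20.4 in WT liver, and its highest fat library was at 0.9. *Abca6* was also highest in liver, with 54.8 ± 13 in *LFABP*-/- and 81.9 ± 14.7 in WT mice, then lower in iWAT (4.0 ± 1.36 in *LFABP*-/- and 7.78 ± 1.46 in WT mice) and lowest in iBAT (1.14 ± 0.321 in *LFABP*-/- and 1.12 ± 0.295 in WT mice).

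**Figure D1:**
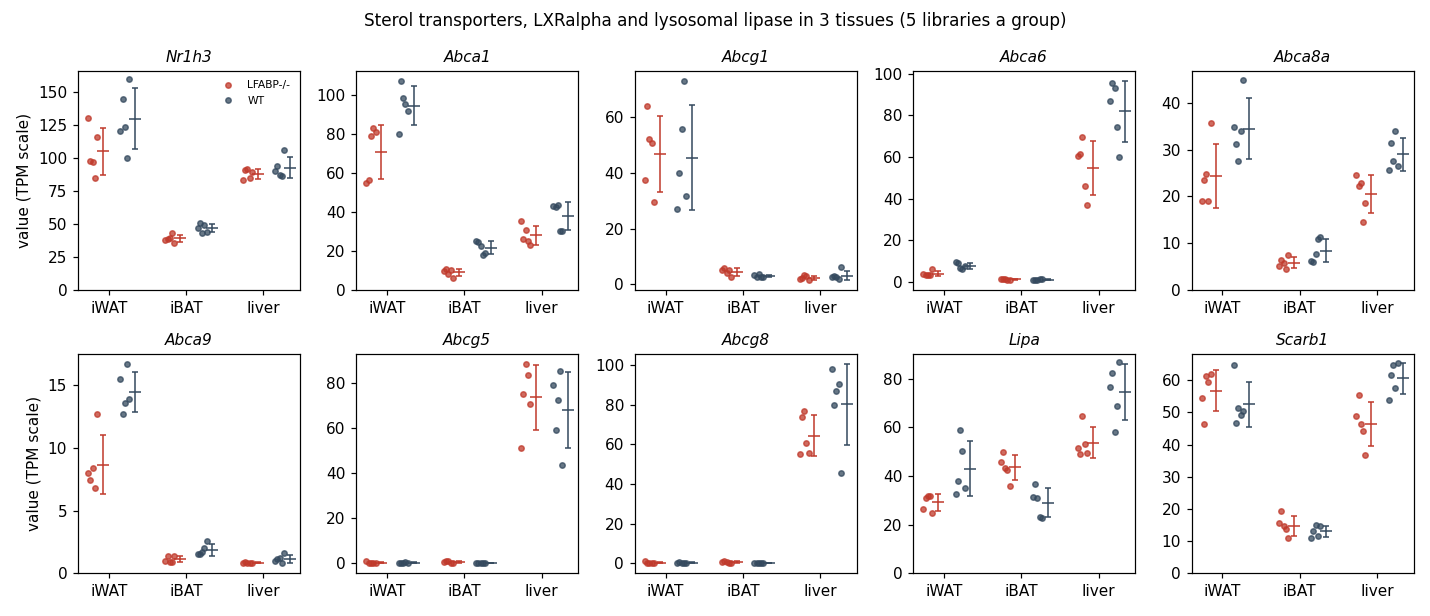
Values (TPM scale, linear axis) of the 10 genes in each library by tissue, LFABP-/- in red and WT in grey-blue. Points are the 5 libraries of a group and the bar beside them is the mean with its SD. Abcg5 and Abcg8 stay at 1.0 or less in all fat libraries, Abcg1 and Abca9 are highest in iWAT, and in iBAT no LFABP-/- library exceeds 10.6 for Abca1 while no WT library is below 17.8.

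*Abca9*, the close neighbour of *Abca6*, had the reverse pattern. It averaged 8.66 ± 2.34 in *LFABP*-/- iWAT and 14.5 ± 1.60 in WT iWAT and was at or under 2.6 in every iBAT and liver library. *Abcg1* was likewise an iWAT transcript, with 46.9 ± 13.6 in *LFABP*-/- and 45.6 ± 19 in WT mice, and stayed between 1.7 and 6.1 in all liver and iBAT libraries. Between those extremes stood *Abca1*, *Abca8a*, *Nr1h3*, *Lipa* and *Scarb1*, found at 6.4 or more in every library but for *Abca8a*, whose lowest iBAT library had 4.5.

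When the 6 groups were ordered by their means, most neighbours overlapped. For *Abca1* the order, low to high, was *LFABP*-/- iBAT (9.12 ± 1.74), WT iBAT (21.8 ± 3.34), *LFABP*-/- liver (28.1 ± 4.86), WT liver (38 ± 7.02), *LFABP*-/- iWAT (70.8 ± 13.9) and WT iWAT (94.5 ± 9.98). The ranges of libraries separated *LFABP*-/- iBAT from WT iBAT and liver from iWAT, and overlapped at the other steps. For *Nr1h3* only the lowest 2 steps were free of overlap, between *LFABP*-/- iBAT (39.2 ± 2.60) and WT iBAT (46.9 ± 3.21) and between WT iBAT and *LFABP*-/- liver (87.9 ± 3.64). *Scarb1* was separated only between *LFABP*-/- liver (46.4 ± 6.76) and *LFABP*-/- iBAT (14.8 ± 3.09). *Lipa* had the flattest profile, with its highest group mean, WT liver at 74.7 ± 11.4, 2.56 times its lowest, WT iBAT at 29.1 ± 6.04. The span of *Abca6* over the same groups was 73.1 times. The order of tissues was not the same in both genotypes for *Lipa*, which was higher in iBAT than in iWAT in 5 of 5 *LFABP*-/- mice (means 43.6 and 29.2) and lower in 5 of 5 WT mice (means 29.1 and 43.0), though the WT direction turned with either other scaling described next. *Scarb1* was lower in liver than in iWAT in 4 of 5 *LFABP*-/- mice and higher in 4 of 5 WT mice. These *Scarb1* counts were not repeated under the other scalings. Median-ratio scaling moved the median log2 difference of all genes in WT liver against iWAT from -1.18 to 0.00. The order of tissues for *Scarb1* therefore rests on the scaling used.

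The tissues of WT mice were compared with limma, in 1 model of the 30 libraries that kept each mouse as a block, on log2(value + 0.5), with Benjamini-Hochberg adjustment over 15564 genes and a call at an adjusted p below 0.1. Fold changes on this scale understate the change of low genes. In iBAT against iWAT 9 of the 10 were called lower and none higher, where 83.8% of all genes were called lower and 7.13% higher. One of the 9, *Abcg8*, passed the filter only through liver. It was listed at 0 in all WT iBAT libraries and averaged 0.22 in WT iWAT, its call was lost in 9 of 17 alternatives, and nothing is read from it. Mitochondrial transcripts took 54.4 to 60.1% of the WT iBAT libraries and 13.3 to 20.6% of the WT iWAT libraries, and the median gene was 1.32 log2 units lower in iBAT, so a lower share says little of any 1 gene. With libraries scaled by the median ratio of their genes, 4925 genes were higher and 5705 lower, and with libraries rescaled without mitochondrial and the top 10 genes 2928 were higher and 10043 lower, in place of 1109 and 13043. The median of all genes was -0.08 with the first and -0.57 with the second. Relative to that shift, *Abcg1* stood out at -3.62 ± 0.27 (SE), *Abca9* at -2.68 ± 0.15 and *Abca6* at -2.35 ± 0.19. The *Lipa* difference, -0.54, turned to 0.85 with the first of these scalings and to 0.37 with the second. The members called lower were then 6 and 7, with *Nr1h3* at -0.04 (adjusted p = 0.84) under the first.

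In liver against iWAT 4 genes were called higher (background 13.5%) and 4 lower (background 77.6%), with a median over all genes of -1.18. Median-ratio scaling gave 5944 genes higher and 5800 lower, in place of 2106 and 12070, with a median of 0.00. Higher in liver were *Abcg8* (6.79 ± 0.27), *Abcg5* (6.56 ± 0.26), *Abca6* (3.31 ± 0.19) and *Lipa* (0.81 ± 0.15). *Abcg5* and *Abcg8* passed the filter only through liver, so their differences from fat are a description. *Abca9* was below the filter in liver and passed only through fat, so its differences between liver and fat are a description too. Lower were *Abcg1* (-3.65 ± 0.27), *Abca9* (-3.20 ± 0.15), *Abca1* (-1.32 ± 0.15) and *Nr1h3* (-0.47 ± 0.10). *Abcg8*, *Abcg5*, *Abca6*, *Lipa*, *Abcg1* and *Abca9* kept their sign and call under median-ratio scaling, but *Abca1* then differed by only -0.05 (adjusted p = 0.81, limma) and *Nr1h3* turned to 0.81. In liver against iBAT 8 were called higher (background 37.8%) and 1 lower (background 32.8%), with *Abca6* at 5.67 ± 0.19 and *Scarb1* at 2.17 ± 0.13 among the higher and *Abca9*, at -0.52 ± 0.15, the lower one. The 8 include *Abcg5* and *Abcg8*, and the limits set by the filter hold here for them and for *Abca9*. Without mitochondrial and the top 10 genes the split of all genes moved to 3364 higher and 9525 lower, in place of 5888 and 5107, its median from 0.08 to -0.54, and the *Abca1* difference from 0.78 to 0.04 (adjusted p = 0.855).

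Next the genotypes were compared within each tissue, each fitted alone with limma. Over the genes that passed a mean value of 1, the median log2 difference was -0.47 for the 8 members tested in iWAT, against 0.05 for all genes, -0.12 for 8 in iBAT, against -0.03, and -0.39 for 9 in liver, against -0.10. *Abcg5* and *Abcg8* in both fats and *Abca9* in liver were below that filter. In iWAT 2 members were called lower and none higher, where 0.77% of 14668 genes were called lower and 0.682% higher. At an unadjusted p below 0.05 in limma there were 5 members, all lower, where 10.4% of all genes passed. In iBAT 4 were called lower and 2 higher, where 25.5% of 11614 genes were called lower and 22.3% higher, so a call in iBAT is common. In liver 5 were called lower and none higher, where 13.9% of 11629 genes were called lower and 3.08% higher, and no member was higher at an unadjusted p below 0.05 either. Lower without any overlap of the groups were 1 member in iWAT, 3 in iBAT and 1 in liver, where 1.66, 14.3 and 8.63% of all genes were, and none was higher without overlap, where 1.45, 12.1 and 1.4% were. With median-ratio scaling the split of all liver genes became 834 lower and 1158 higher in place of 1611 and 358, and 1 member, *Lipa*, was still called. That scaling moved the median of all liver genes from -0.10 to 0.00. Rescaled without mitochondrial and the top 10 genes, the split was 1205 lower and 530 higher. Because the tissues are bulk samples, fewer cells of a type and less RNA per cell cannot be told apart.

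**Figure D2:**
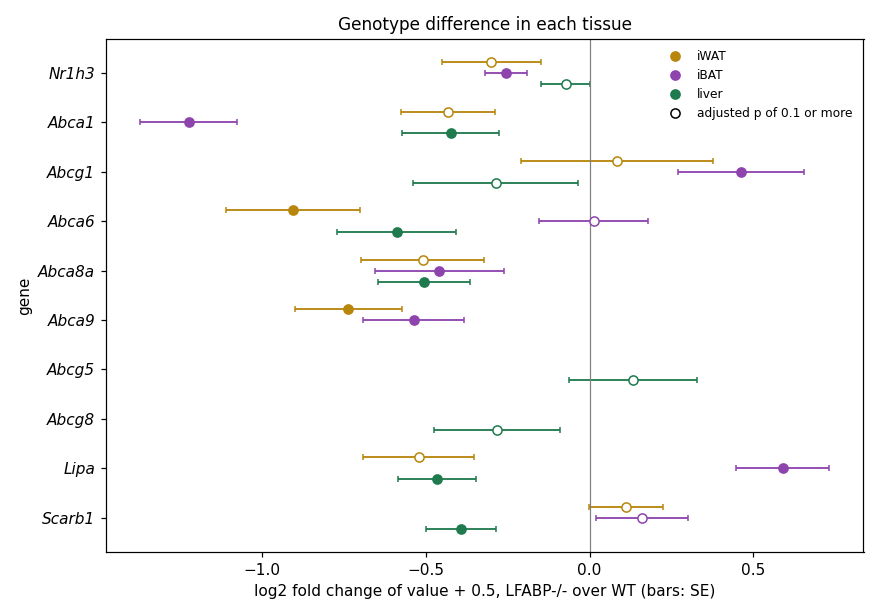
Log2 fold change of value + 0.5, LFABP-/- over WT, with its SE (horizontal axis) for each gene (vertical axis) in iWAT, iBAT and liver, shown for genes above the expression filter. Filled points passed an adjusted p of 0.1. Abca1 in iBAT lies farthest from 0 at -1.22, and Lipa lies at 0.59 in iBAT against -0.52 in iWAT and -0.47 in liver.

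The receptor gene itself moved little. *Nr1h3* fell in iBAT, to 38.3, 39.1, 39.6, 43.1 and 35.9 in *LFABP*-/- mice, against 46.8, 50.7, 43.2, 49.4 and 44.3 in WT mice. The groups did not overlap, by a margin of 0.1 between the highest *LFABP*-/- and the lowest WT library, and the difference was -0.25 ± 0.07 (adjusted p = 0.0113, limma). The call was lost without the 3 *LFABP*-/- libraries highest in hepatocyte markers (-0.25 ± 0.10, adjusted p = 0.139). In iWAT *Nr1h3* was 130.1, 97.7, 97.1, 84.9 and 116.1 in *LFABP*-/- mice, against 120.7, 145.0, 123.3, 100.3 and 159.9 in WT mice, with overlapping groups and a difference of -0.30 ± 0.15 (adjusted p = 0.558). In liver it was 83.2 to 91.4 in *LFABP*-/- mice and 86.7 to 106.1 in WT mice, a difference of -0.07 ± 0.07 (adjusted p = 0.558) that turned to 0.04 with median-ratio scaling.

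Since both LXRs are measured in the same library, their ratio does not depend on scaling. *Nr1h3* over *Nr1h2* was 3.07, 3.56, 3.46, 3.44 and 3.16 in *LFABP*-/- liver, against 2.91, 2.81, 3.29, 3.11 and 2.83 in WT liver, so the alpha form made up slightly more of the pair. The geometric means differed 1.12-fold (exact two-sided permutation p = 0.0397, 0.0794 adjusted over the 4 ratios tested). The ratio was 1.22 in *LFABP*-/- iBAT against 1.29 in WT iBAT (exact p = 0.0635, adjusted 0.0847), and 1.35 in *LFABP*-/- iWAT against 1.68 in WT iWAT (exact p = 0.27, adjusted 0.27). Of the 8 receptors, RXRs and cofactors listed beside *Nr1h3*, none was called in iWAT, where the smallest p-values belonged to the corepressor gene *Ncor1* (-0.29, adjusted p = 0.517) and *Rxra* (0.18, adjusted p = 0.618). In iBAT 1 was higher, the coactivator gene *Ncoa1* (1.00 ± 0.14), and 4 were lower, among them *Rxrb* (-0.34 ± 0.07), *Rxra* (-0.44 ± 0.13) and *Nr1h2* (-0.18 ± 0.06). In liver 4 of the 8 were lower, among them *Ncor1* (-0.47), *Nrip1* (-0.40) and *Rxrb* (-0.35). Of all genes 22.3% were called higher and 25.5% lower in iBAT, and 13.9% lower in liver. *Ncor1* and *Nrip1* code for corepressors.

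*Abca1* in iBAT gave the largest genotype difference among the members tested. It had 10, 10.6, 8.4, 10.2 and 6.4 in *LFABP*-/- mice, against 25.2, 24.6, 22.7, 17.8 and 18.9 in WT mice. Every *LFABP*-/- library was below every WT library. The fitted value was 0.43 of WT (log2 -1.22 ± 0.15, adjusted p = 0.000269, limma), and the call held in all 21 alternatives, where it lay between -1.37 and -1.11. Without the 3 *LFABP*-/- libraries highest in hepatocyte markers, an alternative chosen after the data were seen, it was -1.37 ± 0.21 (adjusted p = 0.0108). Cell type markers also differed in these libraries, where 25.5% of all genes were called lower and 22.3% higher: 5 of 14 stromal and progenitor markers (led by *Gsn*, -0.87, and *Dcn*, -0.79) and 4 of 9 endothelial markers (led by *Tek*, -0.49, and *Emcn*, -0.34) were lower, with summed stromal markers of 427.3 to 492.1 in *LFABP*-/- iBAT and 602.5 to 1068.4 in WT iBAT. Of 14 macrophage markers 1 was lower (*Cd163*, -0.94) and 1 higher (*Lgals3*, 1.73), and with their level as a covariate *Abca1* kept its call (-1.24, adjusted p = 0.000261). Of 12 adipocyte markers 3 were lower (*Cfd*, -3.56, *Retn*, -1.33, and *Adipoq*, -0.53) and 1 higher (*Fabp4*, 0.21), and of 8 brown adipocyte markers 4 were higher (*Elovl3*, 2.82, *Dio2*, 2.49, *Ppargc1a*, 1.79, and *Ucp1*, 0.50) and 1 lower (*Cox8b*, -0.15). All 15 skeletal muscle markers were negative and none was called, with a median of -1.22 and sums of 317.1 to 20168 in *LFABP*-/- iBAT and 1769 to 47073 in WT iBAT. The part of the stromal, endothelial, adipocyte and muscle markers in the *Abca1* difference was not tested.

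In liver *Abca1* fell to 35.3, 26.3, 30.6, 25.1 and 23.2 in *LFABP*-/- mice, against 43.1, 42.7, 43.5, 30.5 and 30.1 in WT mice. The WT libraries formed 2 levels, the lower of which overlapped the *LFABP*-/- range. These levels follow the prefix in the liver and iBAT library names, which is one for WT replicates 1 to 3 and *LFABP*-/- replicates 1 and 2 and another for the rest, and whose meaning is not given in the sources used here. Within the first prefix the liver groups did not overlap, and within the second they did. The WT iBAT values of *Abca1* split in the same way, but there the genotypes did not overlap within either prefix. Those of *Lipa*, *Abca8a* and *Abca9* in WT iBAT also split by prefix. Of these only *Abca8a* had genotypes that overlapped within a prefix, the first. The iBAT calls of *Lipa*, *Abca8a* and *Abca9* were kept with the prefix as a covariate. With the prefix as a covariate *Abca1* was -0.35 in liver (adjusted p = 0.0718) and -1.15 in iBAT (adjusted p = 0.000126). The difference was -0.42 ± 0.15 (adjusted p = 0.0938), and the call was lost in 12 of 22 alternatives. In iWAT the values were 54.7, 56.5, 78.7, 82.9 and 81.0 in *LFABP*-/- mice, against 80.0, 107.3, 98.3, 95.5 and 91.5 in WT mice. These groups overlapped only through WT replicate 1, and the difference, -0.43 ± 0.14, was not called (adjusted p = 0.267). *Abca1* is among the genes the study itself picked out from these iWAT libraries, so its direction there is no independent evidence.

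*Abcg1*, the other LXR-driven exporter, did not share the direction of *Abca1* in fat. In iBAT it had 5.0, 6.0, 4.0, 5.0 and 2.5 in *LFABP*-/- mice, against 3.5, 2.8, 3.6, 2.8 and 2.5 in WT mice. Of the 5 *LFABP*-/- libraries 4 were above all WT libraries and the other equalled the lowest. The call was weak (0.46 ± 0.19, adjusted p = 0.081), was lost in 11 of 21 alternatives, and without the 3 libraries highest in hepatocyte markers became 0.21 (adjusted p = 0.593). In iWAT *Abcg1* was between 29.5 and 64.2 in *LFABP*-/- mice and between 27 and 73.2 in WT mice, a difference of 0.08 ± 0.29 (adjusted p = 0.976), which turned to -0.13 with lymphocyte markers as a covariate and to 0.72 (adjusted p = 0.0987) with macrophage markers. With macrophage markers 2349 of all 14668 genes were called higher and 437 lower, in place of 100 and 113, and their median was 0.22. In liver *Abcg1* was between 1.7 and 3.2 in *LFABP*-/- mice and between 1.9 and 6.1 in WT mice, with no call. The WT liver library at 6.1, replicate 5, was also the highest of the WT livers in summed macrophage markers, at 1433.

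*Abca6*, *Abca8a* and *Abca9* lie side by side on the minus strand of chromosome 11 (GRCm38, *Abca8a* chr11:110025634-110095978, *Abca9* chr11:110100749-110168196 and *Abca6* chr11:110176820-110251776), with *Abca8b* before and *Abca5* after them. The block codes for full-length transporters of high similarity, and how reads that fit several of them were assigned is not given in the sources used here. In iWAT 2 of them were called lower. *Abca6* had 3.7, 3.5, 3.2, 3.2 and 6.4 in *LFABP*-/- mice, against 9.3, 9.2, 6.6, 6.1 and 7.7 in WT mice. Only *LFABP*-/- replicate 5 reached the WT range, and the difference was -0.90 ± 0.20 (adjusted p = 0.09). *Abca9* had 8.0, 7.4, 8.4, 6.8 and 12.7 in *LFABP*-/- mice, against 15.5, 12.7, 13.6, 16.7 and 13.9 in WT mice. The groups met at 12.7, the value of *LFABP*-/- replicate 5 and of WT replicate 2, and the difference was -0.74 ± 0.16 (adjusted p = 0.0882). *Abca8a* had 19, 23.4, 24.8, 19.1 and 35.7 in *LFABP*-/- mice, against 34.8, 31.1, 27.5, 34.0 and 44.8 in WT mice, and was not called (-0.51 ± 0.19, adjusted p = 0.33). *LFABP*-/- replicate 5 was thus the highest of its group for each of the 3 genes. The study names genes of this block from the same iWAT libraries, so their direction is not independent evidence either.

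The 2 iWAT calls were close to the threshold. Each was lost in 15 of 24 alternatives, with adjusted p between 0.0301 and 0.254 for *Abca6* and between 0.0261 and 0.217 for *Abca9* when 1 library was left out. Both were lost without any 1 of WT replicates 1, 2, 3 and 5 or *LFABP*-/- replicates 1 to 4, and *Abca9* also without WT replicate 4. Without the library labelled *LFABP*-/- iWAT 1, *Abca6* was -0.89 (adjusted p = 0.172), *Abca9* -0.72 (adjusted p = 0.171) and *Lipa*, below, -0.49 (adjusted p = 0.407). Without the libraries high in lymphocyte markers, *Abca6* was -0.77 (adjusted p = 0.355) and *Abca9* -0.45 (adjusted p = 0.482). Stromal and progenitor markers fell in the same comparison, 3 of 15 called lower, where 0.77% of all genes were, and 14 of 15 negative. They were led by *Pdgfra*, *Col1a2* and *Dcn*, and their sums were 10401 to 15483 in *LFABP*-/- iWAT and 12465 to 20747 in WT iWAT. With these markers as a covariate *Abca6* was -0.77 (adjusted p = 0.455) and *Abca9* -0.52 (adjusted p = 0.511). Skeletal muscle markers, all 15 of them positive and none called, removed both calls as well when used as a covariate, with differences of -0.89 for *Abca6* (adjusted p = 0.242) and -0.64 for *Abca9* (adjusted p = 0.225). Calls over all genes fell in these fits too, from 100 higher and 113 lower. With stromal markers 6 were higher and 1 lower, and with muscle markers 39 and 17. Without the lymphocyte-high libraries 5 were higher and 1 lower. Such losses are not particular to *Abca6* and *Abca9*.

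In liver *Abca6* and *Abca8a* were called lower. *Abca6* had 60.6, 61.2, 69.4, 45.9 and 37.1 in *LFABP*-/- mice, against 87.0, 95.3, 92.9, 74.3 and 59.9 in WT mice (-0.59 ± 0.18, adjusted p = 0.0661), with only WT replicate 5 inside the *LFABP*-/- range. *Abca8a* had 24.5, 22.3, 22.8, 14.5 and 18.5 in *LFABP*-/- mice, against 25.6, 31.4, 27.5, 34.0 and 26.5 in WT mice (-0.50 ± 0.14, adjusted p = 0.0491). It was the only member whose liver groups did not overlap, as 8.63% of all liver genes did in this direction. *Abca9* in liver was between 0.8 and 0.9 in *LFABP*-/- mice and between 0.8 and 1.6 in WT mice, values of 1 decimal too low to test across genes. In iBAT *Abca9* fell to 1.0, 1.4, 0.9, 0.9 and 1.4 in *LFABP*-/- mice, against 1.5, 1.5, 1.7, 2.0 and 2.6 in WT mice, without overlap (-0.54 ± 0.15, adjusted p = 0.0188), a call that was lost without the 3 libraries highest in hepatocyte markers (-0.51, adjusted p = 0.147). *Abca8a* was at 4.5 to 7.6 in *LFABP*-/- iBAT and 6.1 to 11.4 in WT iBAT (-0.46 ± 0.20, adjusted p = 0.0888), a call that was lost in 11 of 21 alternatives.

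**Figure D3:**
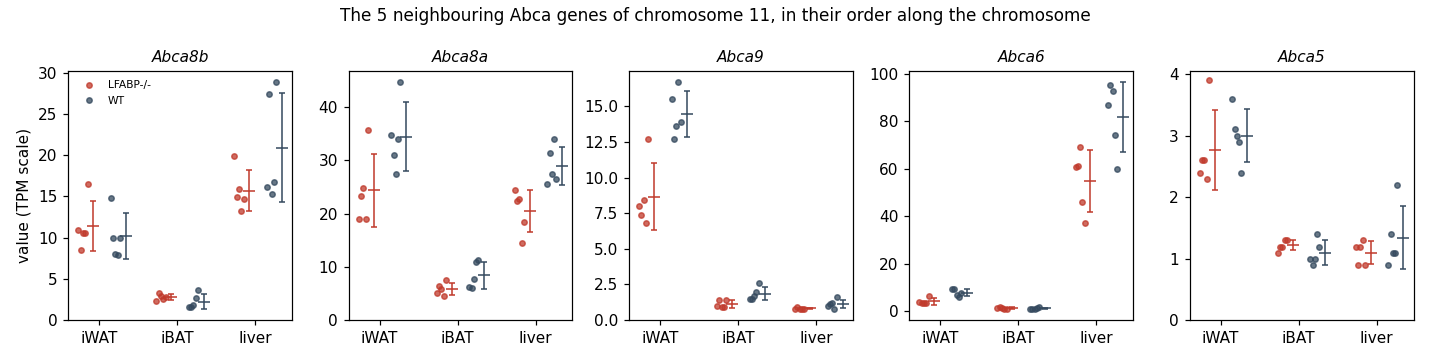
Values (TPM scale, linear axes of different height) of the 5 adjacent Abca genes of chromosome 11 in each library by tissue, LFABP-/- in red and WT in grey-blue, with mean and SD beside the 5 points of a group. Abca6 peaks in liver at 81.9 in WT mice while Abca9 beside it peaks in iWAT at 14.5.

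The outer 2 genes of the block were not called in any tissue. *Abca8b* averaged 11.4 ± 3.00 in *LFABP*-/- iWAT and 10.1 ± 2.80 in WT iWAT (0.17 ± 0.21, adjusted p = 0.946), where *Abca8a* next to it differed by -0.51. *Abca5* was between 0.9 and 3.9 in all libraries.

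*Abca6* in iBAT needs the hepatocyte markers beside it. Its values were 1.3, 1.5, 1.3, 0.8 and 0.8 in *LFABP*-/- mice, against 1.0, 0.9, 0.9, 1.2 and 1.6 in WT mice (0.01 ± 0.17, adjusted p = 0.961). The 3 libraries at 1.3 or above in the *LFABP*-/- group are the 3 with the highest hepatocyte markers. The marker percentage of each library times the liver mean of *Abca6* in its genotype came to 13.4 to 66.4% of the *Abca6* value in *LFABP*-/- iBAT, against 0.277 to 4.46% by the same product in WT iBAT. Without those 3 libraries the difference was -0.30 ± 0.19 (adjusted p = 0.318). For *Abca1*, *Lipa* and *Nr1h3* in *LFABP*-/- iBAT the same product was at most 5.14, 1.95 and 4.08% of the value.

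The same markers stand beside *Abcg5* and *Abcg8* in fat. *Abcg5* was listed at 0.7, 0.9, 0.9, 0.2 and 0.1 in *LFABP*-/- iBAT, against 0 in 4 WT iBAT libraries and 0.1 in the other (exact two-sided permutation p = 0.0159, 1 of 30 such tests). *Abcg8* was at 0.7, 0.9, 0.8, 0.1 and 0 in *LFABP*-/- iBAT and listed at 0 in all 5 WT iBAT libraries (exact p = 0.0476). The *LFABP*-/- values followed the hepatocyte markers in the order of their libraries. As percentages of the *LFABP*-/- liver mean, *Abcg5* reached 0.951, 1.22, 1.22, 0.272 and 0.136, where the markers reached 1.29, 1.81, 1.54, 0.312 and 0.196%. The single iWAT library with *Abcg5* above 0.4, *LFABP*-/- replicate 1 at 1.0, was also the one highest in hepatocyte markers. Transcripts of liver cells and of fat cells cannot be told apart in these values.

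**Figure D4:**
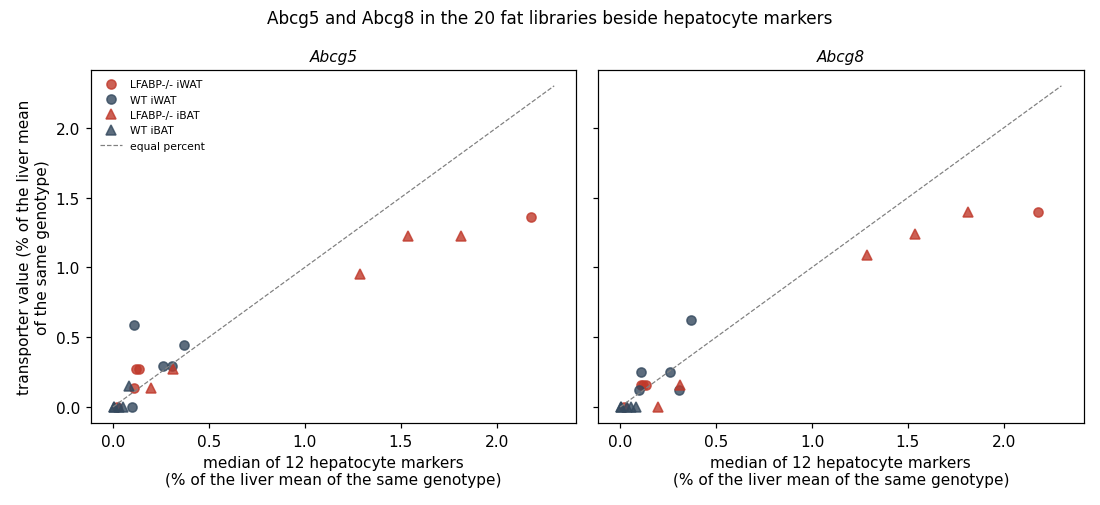
Abcg5 (left) and Abcg8 (right) in the 20 fat libraries as a percent of the same genotype's liver mean (vertical axis) against the median of 12 hepatocyte markers on the same scale (horizontal axis), circles for iWAT, triangles for iBAT, red for LFABP-/-, grey-blue for WT and the dashed line for equal percentages. The 4 LFABP-/- libraries with markers above 1% are the 4 with Abcg5 above 0.9%, and all WT libraries lie below 0.7% on both axes.

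In liver, where the heterodimer belongs, neither gene was called. *Abcg5* had 51.2, 74.8, 88.3, 83.5 and 70.4 in *LFABP*-/- mice, against 79.1, 58.9, 72.5, 85.1 and 43.5 in WT mice (0.13 ± 0.19, adjusted p = 0.692). *Abcg8* had 55.0, 73.7, 77.0, 60.7 and 55.8 in *LFABP*-/- mice, against 98.2, 80.0, 86.9, 90.5 and 45.8 in WT mice (-0.28 ± 0.19, adjusted p = 0.365). WT replicate 5 was the lowest WT library for both, and without it *Abcg8* was called lower at -0.47 (adjusted p = 0.0405) while *Abcg5* was at -0.02. With macrophage markers as a covariate *Abcg8* was also called lower (-0.44, adjusted p = 0.0912). The 2 subunits differed in direction, and their ratio within a library is free of scaling. *Abcg5* over *Abcg8* was 0.931, 1.01, 1.15, 1.38 and 1.26 in *LFABP*-/- livers, against 0.805, 0.736, 0.834, 0.940 and 0.950 in WT livers. Only the lowest *LFABP*-/- ratio was inside the WT range. The geometric means were 1.13 and 0.849, a 1.34-fold difference (exact two-sided permutation p = 0.0238, 0.0794 adjusted over the 4 ratios). The 2 gene spans overlap by 6710 bases on opposite strands and share 40 exonic bases in the GENCODE M21 basic set, and the counting is not stated to use strand, so reads from the shared bases cannot be told apart.

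**Figure D5:**
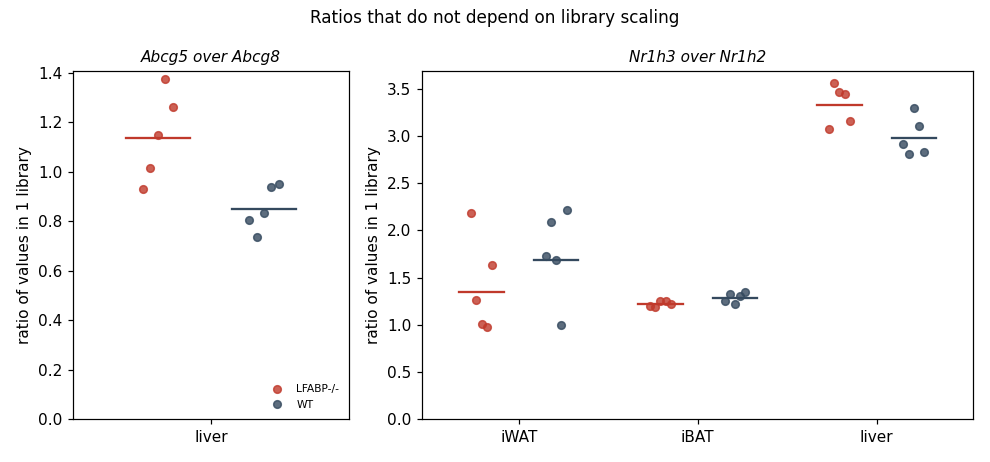
Ratio of 2 genes in the same library (vertical axes, linear, from 0), Abcg5 over Abcg8 in liver (left) and Nr1h3 over Nr1h2 in 3 tissues (right), LFABP-/- in red and WT in grey-blue, with lines at the geometric means. The Abcg5 over Abcg8 ratio averages 1.13 in LFABP-/- livers and 0.849 in WT livers, with 1 LFABP-/- library inside the WT range.

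*Lipa* was the gene whose direction differed most between tissues. In iBAT it rose to 45.9, 50, 43.5, 42.7 and 35.8 in *LFABP*-/- mice, against 31.6, 36.9, 31.2, 23.2 and 22.8 in WT mice. Of the 5 *LFABP*-/- libraries 4 were above all WT libraries, and the difference was 0.59 ± 0.14 (adjusted p = 0.00866). It was kept in 21 of 22 alternatives and lost without the 3 libraries highest in hepatocyte markers (0.44 ± 0.20, adjusted p = 0.183). In liver *Lipa* fell to 51.7, 49, 64.6, 53.3 and 49.7 in *LFABP*-/- mice, against 76.6, 82.6, 58.2, 68.9 and 87.0 in WT mice (-0.47 ± 0.12, adjusted p = 0.0381). In iWAT it had 26.3, 30.9, 32, 31.8 and 24.9 in *LFABP*-/- mice, against 32.5, 37.9, 59.1, 50.5 and 35.0 in WT mice. The iWAT groups did not overlap, as for 1.66% of all genes in this direction, yet the difference was not called (-0.52 ± 0.17, adjusted p = 0.255). *Lipa* is abundant in macrophages, and all 20 macrophage markers were lower in *LFABP*-/- iWAT, 2 of them called (*Adgre1*, -1.01, and *Cd14*, -0.62), where 0.77% of all genes were called lower. Their sums were 1954 to 3124 in *LFABP*-/- and 2276 to 5047 in WT mice. With macrophage markers as a covariate the *Lipa* difference in iWAT was -0.10 (adjusted p = 0.529), and with lymphocyte markers as a covariate it was -0.63 (adjusted p = 0.012). Fitted over all 30 libraries at once, blocked by mouse, it was also called (-0.52 ± 0.15, adjusted p = 0.0473). More genes of any kind were called in these fits, in place of 100 higher and 113 lower. There were 2349 higher and 437 lower with macrophage markers, 514 and 687 with lymphocyte markers, and 464 and 486 over the 30 libraries. The study names *Lipa* from these iWAT libraries too.

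*Scarb1* changed only in liver, among the tissue fits run. It fell to 48.9, 55.4, 46.5, 44.1 and 36.9 in *LFABP*-/- mice, against 53.9, 61.7, 64.6, 57.5 and 65.2 in WT mice (-0.39 ± 0.11, adjusted p = 0.0463). Only *LFABP*-/- replicate 2 reached into the WT range, and the call was lost in 2 of 22 alternatives, median-ratio scaling (-0.27, adjusted p = 0.144) and leaving out WT replicate 2 (-0.38, adjusted p = 0.114). In iWAT *Scarb1* was 46.5 to 61.8 in *LFABP*-/- mice and 46.7 to 64.7 in WT mice (0.11 ± 0.11, adjusted p = 0.908). In iBAT it was 10.9 to 19.4 in *LFABP*-/- mice and 11.1 to 14.9 in WT mice (0.16 ± 0.14, adjusted p = 0.401), turning to -0.09 without the 3 libraries highest in hepatocyte markers.

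Leaving out WT replicate 2 removed all 5 liver calls, with adjusted p of 0.214 for *Abca1*, 0.166 for *Abca6*, 0.126 for *Abca8a*, 0.105 for *Lipa* and 0.114 for *Scarb1*, while their differences stayed between -0.53 and -0.38. Calls over all liver genes fell in that fit too, from 1611 lower and 358 higher to 635 and 111. The loss is thus not particular to these 5. Other markers moved with genotype in liver. Mitochondrial transcripts took 16.9 to 18.1% of *LFABP*-/- liver libraries and 12.1 to 15.1% of WT liver libraries. Of 12 hepatocyte markers 4 were called lower (*Alb* -0.52, *Ahsg* -0.48, *Serpina1e* -1.52 and *Fgb* -0.33), where 13.9% of all genes were, with sums of 107670 to 125459 in *LFABP*-/- and 130136 to 151111 in WT livers. Summed stromal markers, 1 of 12 called lower (*Fn1*, -0.42), were 312.2 to 378.2 in *LFABP*-/- and 431 to 555.4 in WT livers. Such a sum follows its highest genes. The mean log2 value of the list, which weighs its genes alike, overlapped, at 2.31 to 2.60 in *LFABP*-/- and 2.31 to 3.72 in WT livers. The part of these shifts in the liver calls was not tested. With Kupffer cell markers as a covariate, an alternative chosen after the data were seen, all 5 remained below 0.1. In that fit more of all liver genes were called, 2041 lower and 521 higher.

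Whether a genotype difference itself differed between tissues was tested over the 30 libraries together. Between iBAT and liver 3 members were called higher and 1 lower, where 10.3% of all genes were called higher and 4.83% lower. The *Lipa* difference was 1.05 ± 0.21 larger in iBAT than in liver (adjusted p = 0.00211) and that of *Scarb1* 0.55 ± 0.18 larger (adjusted p = 0.0431). That of *Abca1* was -0.80 ± 0.22 relative to liver (adjusted p = 0.0173). The third called higher was *Abcg8* (1.16), which passed the filter only through liver and had iBAT values at or under 0.9 that stand beside the hepatocyte markers above, so nothing is read from its call. Between iWAT and iBAT 1 was called higher, *Abca1* (0.79 ± 0.22, adjusted p = 0.0261), and 2 lower, *Lipa* (-1.11 ± 0.21, adjusted p = 0.00209) and *Abca6* (-0.92 ± 0.27, adjusted p = 0.036), where 6.17% were called higher and 4.99% lower. Scaling moved these splits: by the median ratio, 1018 genes were higher and 1576 lower between iWAT and iBAT in place of 960 and 777, and 169 higher and 199 lower between iWAT and liver, where 2.52% were higher and 1.02% lower before. Without mitochondrial and the top 10 genes, 1657 were higher and 1400 lower between iBAT and liver in place of 1601 and 752. The *Lipa* and *Abca1* calls held in all 17 alternatives run for them. None of the 17 left out the 3 *LFABP*-/- iBAT libraries highest in hepatocyte markers together. Without those libraries the *Lipa* call within iBAT was lost (0.44, adjusted p = 0.183, limma) and that of *Abca1* was kept. Between iWAT and liver none of the 10 was called, where 3.54% of all genes were. At an unadjusted p below 0.05 in limma there were 2, *Abca9* (-0.44 ± 0.21) and *Scarb1* (0.50 ± 0.18), where 14.2% of all genes passed. *Abca9* passed the filter only through fat and had liver values at or under 1.6, too low to test, so nothing is read from its difference. So *Abca1* was lower in *LFABP*-/- iBAT by more than in either other tissue, and *Lipa* was higher there while its difference was negative in iWAT and liver.

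Other genes of cholesterol handling were read from fixed lists. Of 18 further LXR target genes tested in iWAT none was called, and the smallest p-values were those of *Abcg4* (-0.54, adjusted p = 0.276) and *Mlxipl* (0.50, adjusted p = 0.309). In iBAT 5 of 15 were higher and 2 lower, where 22.3% of all genes were called higher and 25.5% lower. The higher ones included *Lpcat3*, which remodels phospholipids (0.72 ± 0.12), *Lpl*, the lipoprotein lipase gene (0.50 ± 0.14), and *Apoc2* (2.65 ± 0.54), an apolipoprotein gene of liver that moved with the hepatocyte markers. The lower ones included *Mylip*, a ubiquitin ligase gene (-0.55 ± 0.14). In liver the median of 18 was -0.17, against -0.10 for all genes. Of these, 5 were lower and none higher, where 13.9% of all genes were called lower and 3.08% higher. *Cyp7a1*, the rate-limiting enzyme of bile acid synthesis, led them at -1.50 ± 0.25 (adjusted p = 0.0116), with *Abca7* (-0.41), *Lpcat3* (-0.49) and *Pltp*, the phospholipid transfer protein gene (-0.81).

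Of the sterol synthesis and SREBP2 target genes tested in iWAT, 3 of 20 were higher (*Sc5d* 1.11 ± 0.22, *Insig1* 1.33 ± 0.28 and *Hmgcs1* 1.26 ± 0.28) and none lower, with 19 of 20 positive and a median of 0.77. Of all iWAT genes 0.682% were called higher, and their median was 0.05. In iBAT 14 of 20 were higher and none lower, where 22.3% of all genes were called higher, with a median of 0.53, led by *Hmgcs1* (1.11 ± 0.13), *Hsd17b7* (0.99 ± 0.13), *Fdps* (1.04 ± 0.14) and *Pmvk* (0.74 ± 0.11). In liver none of 21 was higher and 2 were lower, among them *Scap* (-0.40 ± 0.12), with a median of 0.12. Of all liver genes 3.08% were called higher and 13.9% lower, and their median was -0.10. The study itself describes cholesterol synthesis in these iWAT libraries, so the iWAT direction is not independent.

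Among genes of sterol uptake and intracellular transport none of 23 was called in iWAT, where *Osbpl1a* was at -0.38 ± 0.17 (adjusted p = 0.47). In iBAT 6 of 22 were higher and 4 lower, where 22.3% and 25.5% of all genes were, including *Nceh1*, a cholesteryl ester hydrolase gene (2.34 ± 0.30), *Cav1* (0.57 ± 0.08), the lipoprotein receptor gene *Lrp1* (-1.04 ± 0.15) and *Gramd1a* (-0.40 ± 0.06). The higher ones also held *Apoa1* (4.45 ± 0.91) and *Lcat* (2.07 ± 0.49), genes of liver that rose in the iBAT comparison as 11 of 12 hepatocyte markers did. In liver 9 of 22 were lower and 1 higher, among them *Npc1*, which exports cholesterol from lysosomes (-0.61 ± 0.12), *Lrp1* (-0.55 ± 0.13), *Osbpl2* (-0.28 ± 0.07) and *Scarb2* (-0.27 ± 0.07). Of all liver genes 13.9% were called lower and 3.08% higher, a split that turned to 834 lower and 1158 higher with median-ratio scaling. Of the other Abca genes none of 5 was called in iWAT (*Abca2* -0.15 and *Abca7* 0.36), 2 of 5 were higher in iBAT (*Abca7* 0.28 and *Abca3* 0.21), and 3 of 5 were lower in liver (*Abca3* -0.36, *Abca7* -0.41 and *Abca2* -0.52). Of the other ABC lipid transporters of liver, 1 of 8 was higher there (*Abcg2* 0.42) and 1 lower (*Abcc2* -0.43), 2 of 5 were higher in iBAT (*Abcg2* 0.50 and *Abcd3* 0.28), and none of 7 was called in iWAT, with *Abcg4* and *Abcb1a* (-0.12) having the smallest p. Beside both of these lists, 22.3% of all genes were called higher in iBAT, and 3.08% higher and 13.9% lower in liver.

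Genes with the profile most like that of 4 members were found by the root mean square difference of their centred log2 means over the 6 groups, among 9983 genes with a mean of at least 5. *Nr1h3* was most like *Arl6ip1* (0.0506), *Tm9sf1* (0.0667) and *Cept1* (0.0730). *Abca1* was most like *Xdh* (0.142), *Tnrc18* (0.150) and *E130102H24Rik* (0.177). *Abcg5* was most like *Nr1i2* (0.0574), *Cyp2d40* (0.0679) and *Nlrp6* (0.0800), all genes with nearly no fat signal. *Lipa* had no close match, its nearest being *Farp2* (0.190), *Fdx1* (0.198) and *Acsf2* (0.224).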

How the data were processed

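Poly(A) RNA of iWAT, iBAT and liver from the same 10 mice was sequenced, and the authors trimmed and mapped the reads in CLC Genomics Workbench to GRCm38 with Ensembl gene models. The deposited table calls its values RPKM, but each library sums to nearly the same total, so the authors' values were treated as TPM, rounded to 1 decimal. How multi-mapping reads and strand were counted is not given in the sources used here. Such values hold no counts, so no count model was used and the precision comes from the spread of 5 libraries.

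Values were tested as log2(value + 0.5) with limma 3.58.1 (R 4.3.3, with statmod 1.5.0 for the block) and an intensity trend in the prior variance, with Benjamini-Hochberg adjustment over all genes of mean value 1 or more and a call at an adjusted p below 0.1. Genotypes were compared within each tissue. Tissues, and differences of genotype effects, were compared over all 30 libraries with the mouse as a block, since the labels give the same mouse in each tissue (consensus correlation -0.02, same-mouse r between -0.44 and 0.41 over 30 pairs). The ratios, and all 10 members in each tissue, were tested by exact two-sided permutation over 252 assignments, where the smallest p is 0.0079. Of the 30 member tests only those of *Abcg5* and *Abcg8* in iBAT are printed. Scripts were tested on simulated data. Figures were drawn with matplotlib 3.10.9 and summaries made in Python 3.11.15 with pandas 2.3.3. Of 60 pairs of libraries within a group none was a copy.

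All 10 genes were described in every tissue, with *Fabp1*. From each other list, up to 4 called genes of smallest p were named, or the 2 of smallest p where none was called, and for 4 genes the 3 most similar profiles. The genes, lists and markers were chosen with earlier results of these data known. Marker genes named beside a result outside that rule were chosen after their values were seen. A few genes that this rule would name are not reported here. Replicates are separate mice. Alternatives changed the pseudocount (0.1 or 1), the filter (none or a mean of 20), the scaling, the threshold (0.05), covariates, the libraries used and, for genotypes, 1 fit of all 30 libraries.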

Additional observations from a re-analysis of the deposited data

Results flagged for a closer look

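In 10 of the 60 groups of 5 libraries (10 genes in 6 groups), 1 library lay far from the other 4. For continuous normal values chance gives this in about 1 in 20 groups. Some groups here are tied at the rounding step or, for *Abcg8* in WT iBAT, at 0, and the groups share libraries. The count therefore cannot be set against that rate. In iWAT, *LFABP*-/- replicate 5 was highest for *Abca6* (6.4, next 3.7) and for *Abca9* (12.7, next 8.4). The library labelled *LFABP*-/- iWAT 1 was highest for *Abcg5* (1.0, next 0.2) and *Abcg8* (0.9, next 0.1), and it was also the highest of its group in hepatocyte markers. *Abcg8* was 0.5 in WT iWAT replicate 2 (next 0.2), and *Scarb1* was 64.7 in WT iWAT replicate 1 (next 51.5). *Abcg5* was 0.1 in WT iBAT replicate 5, where the others were listed at 0. In liver, *Abca9* was 0.9 in *LFABP*-/- replicate 2 (next 0.8, the rounding step of the table), *Lipa* was 64.6 in *LFABP*-/- replicate 3 (next 53.3) and *Abcg1* was 6.1 in WT replicate 5 (next 2.9).

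Genotype effects differed between tissues in 7 comparisons, each given as a log2 difference of *LFABP*-/- over WT effects tested with limma. Between iWAT and iBAT these were *Abca1* (0.79), *Abca6* (-0.92) and *Lipa* (-1.11). Between iBAT and liver they were *Abca1* (-0.80), *Abcg8* (1.16), *Lipa* (1.05) and *Scarb1* (0.55). *Abcg8* passed the filter only through liver, and nothing is read from its call. What the values of *Abca1*, *Abca6*, *Abcg8*, *Lipa* and *Scarb1* owe to the hepatocyte markers of the *LFABP*-/- iBAT libraries was not tested in these fits.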

How the results depend on the processing

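In iWAT the 2 members called lower became 0 without a filter, with a filter at a mean of 20, with median-ratio scaling, with muscle or stromal markers as a covariate, without the lymphocyte-high libraries and at an adjusted p of 0.05. Over all genes, 113 lower became 65, 67, 45, 17, 1, 1 and 29 in these settings, in the same order. The members called lower became 1 when rescaled without mitochondrial and top 10 genes, with the replicate block and with the prefix of the mouse's iBAT library name as a covariate. There 117, 132 and 85 of all genes were lower. In the iWAT library names the second prefix occurs in *LFABP*-/- mice only, so there it is tied to genotype. With macrophage markers as a covariate 4 were lower and 1 higher, where 437 of all 14668 genes were lower and 2349 higher, in place of 113 and 100. In iBAT, 4 lower and 2 higher became 1 and 1 with the filter at 20 and 1 and 0 without the 3 libraries highest in hepatocyte markers, and the higher ones became 1 when rescaled or at 0.05. Over all iBAT genes, 2961 lower and 2595 higher became 528 and 863 of 2885 with the filter at 20. Without the 3 libraries they became 1863 and 1002. The higher ones were 2597 of 13564 when rescaled and 2157 at 0.05. In liver, 5 lower became 3 without a filter, when rescaled, with the replicate block, in the fit of all libraries with the mouse block and at 0.05, and 1 with median-ratio scaling. Over all liver genes, 1611 lower became 1155, 1205, 995, 1055, 860 and 834 in these settings, in the same order. The replicate numbers share only a number between genotypes (same-number r -0.53 to 0.67, and 2, 1 and 2 of 5 *LFABP*-/- libraries of iWAT, iBAT and liver closest to their own number), and leaving out the mouse block changed no count of members between tissues. Between tissues, iBAT against iWAT gained 1 higher with either other scaling, where the 9 lower became 6 with median-ratio scaling and 7 when rescaled, liver against iWAT became 7 higher and 2 lower with median-ratio scaling, and liver against iBAT had 0 lower with the filter at 20 and 2 when rescaled. In liver against iBAT, 2402 of 6984 genes were lower with the filter at 20 and 9525 of 16359 when rescaled, in place of 5107 of 15564. For genotype effects, iWAT against iBAT had 4 lower with a pseudocount of 0.1 and either other scaling. Over all genes 851 were then lower with that pseudocount, 1576 with median-ratio scaling and 1074 when rescaled, in place of 777.

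Leaving out 1 library gave 0 to 2 lower in iWAT (2 only without *LFABP*-/- replicate 5, 1 without WT replicate 4), and 1 to 2 higher in iBAT (1 without WT replicate 2, 4 or 5 or *LFABP*-/- replicate 1, 2, 3 or 4). Over all genes, 17 to 161 were lower in iWAT in place of 113, and 2225 to 3016 higher in iBAT in place of 2595. In liver, leaving out 1 library gave 0 to 6 members lower, with 0 without WT replicate 2, 3 without WT replicate 1 or 3 or *LFABP*-/- replicate 4, and 2 without *LFABP*-/- replicate 5. Over all liver genes, 1611 lower became 635 without WT replicate 2, and 1447 and 1511 without WT replicates 1 and 3. They became 953 and 883 without *LFABP*-/- replicates 4 and 5. For genotype effects, leaving out a mouse gave 1 to 4 lower for iWAT against iBAT (4 without *LFABP*-/- replicate 1, 1 without WT replicate 1 or 2 or *LFABP*-/- replicate 2 or 3), 0 to 1 higher for iWAT against liver (1 without WT replicate 1 or *LFABP*-/- replicate 2) and 2 to 5 higher for iBAT against liver (5 without WT replicate 5). The *Nr1h3* over *Nr1h2* log2 ratio ranged from -0.10 to -0.063 in iBAT and from 0.14 to 0.19 in liver, crossing an unadjusted 0.05 in 2 and 6 of 10 omissions.

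Directions turned for *Abcg1* in iWAT with lymphocyte markers (-0.13; -0.079 to 0.28 when 1 library was left out), for *Abca6* in iBAT when rescaled (-0.0044), with macrophage markers (-0.00030), without the 3 libraries (-0.30) and when 1 was left out (-0.065 to 0.11), for *Scarb1* in iBAT without the 3 libraries (-0.087), for *Nr1h3* in liver with median-ratio scaling (0.044) and for *Abcg5* in liver when 1 was left out (-0.016 to 0.26). They also turned for *Lipa* in iBAT against iWAT (0.85 and 0.37) and *Nr1h3* in liver against iWAT (0.81). The causes were not tested. Of 590 single values of genotype differences under an alternative, 477 kept direction and side of the threshold, as did 448 of 465 tissue and 116 of 126 difference-of-effect values. Values of 1 decimal limit what can be read for *Abcg5* and *Abcg8* in fat and *Abca9* in liver.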
